A study of Mus musculus with 44 samples.

Results

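The genes described here are 9 genes of the complement system, C1qa, C1qb, C1qc, C2, C3, C4b, Cfb, C3ar1 and C5ar1, out of 43411 genes in the deposited table. They were chosen by name, as the recognition molecule of the classical pathway, the proteins that form the C3-cleaving enzymes, and the receptors for the cleavage fragments, and all 9 passed the filter on low values. RNA was sequenced from back skin of 44 wild-type (WT) C57Bl/6 female mice that were 8 weeks old when injections began. Mice received daily subcutaneous saline (saline, n = 10) or bleomycin, 100 µL at 1 U/mL by the sample labels, for 2 weeks (bleo 2, n = 10) or 4 weeks (bleo 4, n = 10). In the other groups bleomycin was given for 4 weeks and the mice then stayed untreated for 6 weeks (recv 6, n = 6) or 10 weeks (recv 10, n = 8). Bleomycin is a DNA-damaging drug that brings on dermal inflammation and fibrosis at the injected site. The study's supplement gives a lower bleomycin concentration than the labels, so the dose is uncertain. Each library came from the skin of 1 mouse. The sources used here do not give how long the saline mice were injected, so recovery, age and time since injection cannot be told apart in the comparisons of recovered mice with saline mice.

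Complement is a cascade of proteins that mark and lyse targets and call in leukocytes. C1q, built from the products of C1qa, C1qb and C1qc, binds immune complexes and dying cells, which lets C4 and C2 assemble into an enzyme that splits C3, while factor B (Cfb) forms the C3-splitting enzyme of the alternative pathway, which amplifies the reaction. The fragments C3a and C5a act on the receptors C3ar1 and C5ar1 on myeloid cells. Liver cells supply most circulating C3, C4 and factor B, while macrophages and dendritic cells are known sources of C1q in tissue, and fibroblasts, endothelial cells and macrophages of the skin can make several of the other components.

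Values are normalized counts, that is reads per gene after the authors divided each mouse's counts by a factor for sequencing depth. The recovered reads per mouse were 8509094 to 15285577 (median 11310008), with group medians of 9523976 in saline, 9863482 in bleo 2, 12255521 in bleo 4, 11528777 in recv 6 and 12905996 in recv 10. The groups were compared with limma, after adding 1 to each value and taking log2, in 1 fit over all 44 mice and 17037 genes. A gene was called differentially expressed (DEG) at a fold change above 1.5 in either direction and a Benjamini-Hochberg adjusted p below 0.05 over all genes tested. The skin markers were present in each mouse: summed keratinocyte markers were at 117652 to 236842 (median 202162) normalized counts in saline mice, and 0 of the 8 keratinocyte genes tested were DEGs against saline at any time by limma, edgeR and DESeq2, with at most 2 in a direction at an unadjusted p below 0.05. Of all mice, saline replicate 1 and bleo 2 replicate 2 had the lowest median correlation with their own group, 0.942 and 0.938, and results that depended on them are given with and without them.

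The genes lay in few places of the GRCm38 mouse genome (GENCODE M21 annotation), all 9 on the minus strand. C1qb (chr4:136880129-136886187), C1qc (chr4:136889804-136893065) and C1qa (chr4:136895917-136898803) formed a cluster on chromosome 4. Cfb (chr17:34856374-34862518) and C2 (chr17:34862604-34898265) were neighbours on chromosome 17, in the stretch that also held C4b (chr17:34728380-34743882) and its close copy C4a (chr17:34809092-34823464), and C3 lay elsewhere on that chromosome (chr17:57203970-57228136). C3ar1 was at chr6:122847138-122856161 and C5ar1 at chr7:16246743-16259540, next to C5ar2.

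Sequence just upstream of annotated starts was read from RefSeq on GRCm38.p6 for the members that had an entry, C1qb, C1qc, C3, C3ar1 and C5ar1, 5 of the 9, with the stretch kept before the first annotated start. C1qa, C2, C4b and Cfb were the members without one. The upstream stretches of C1qb (chr4:136886201-136886450, minus strand), C1qc (chr4:136893066-136893164, minus strand), C3 (chr17:57228137-57228386, minus strand) and C3ar1 (chr6:122856162-122856407, minus strand) are printed 5′ to 3′ because C1qb, C1qc and C3ar1 rose together under bleomycin while C3 took another course. Capitals mark a match to 1 of the motifs searched on both strands.
C1qb: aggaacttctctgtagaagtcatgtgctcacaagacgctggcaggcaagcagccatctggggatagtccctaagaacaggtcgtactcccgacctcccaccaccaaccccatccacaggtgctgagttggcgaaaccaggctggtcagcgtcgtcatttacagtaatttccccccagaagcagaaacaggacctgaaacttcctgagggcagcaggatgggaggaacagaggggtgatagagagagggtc
C1qc: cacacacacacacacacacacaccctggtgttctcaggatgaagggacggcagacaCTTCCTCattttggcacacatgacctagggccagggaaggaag
C3: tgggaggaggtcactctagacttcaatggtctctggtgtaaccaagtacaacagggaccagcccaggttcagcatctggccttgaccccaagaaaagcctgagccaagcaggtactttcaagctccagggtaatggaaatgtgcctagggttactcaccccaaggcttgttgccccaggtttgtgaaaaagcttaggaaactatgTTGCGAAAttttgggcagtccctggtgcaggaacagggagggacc
C3ar1: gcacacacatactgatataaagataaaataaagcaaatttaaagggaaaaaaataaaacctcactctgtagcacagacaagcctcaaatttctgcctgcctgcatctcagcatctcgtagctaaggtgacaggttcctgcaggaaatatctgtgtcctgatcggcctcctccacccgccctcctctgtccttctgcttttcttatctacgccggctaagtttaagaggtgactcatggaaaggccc
The motifs searched were GAS (TTCNNNGAA), ISRE (a pair of GAAA blocks with 2 bases between them), a PU.1 core (GAGGAAG), a C/EBP core (TTGCNNAA) and a kappaB form (GGGNNTTCC). The capitals in C3 are a C/EBP match 45 to 38 bases before the RefSeq start, and those in C1qc are a PU.1 match on the opposite strand 194 to 188 bases before the RefSeq start. Among 32851 RefSeq promoter windows of 250 bases, 9.56% held the C/EBP letters, 10.6% the PU.1 letters, 7.02% GAS, 2.98% ISRE and 4.98% the kappaB letters, so both matches are of kinds that many promoters hold. They describe the letters in these windows and nothing more.

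Under bleomycin, 7 of the 9 genes rose at 2 weeks and 7 at 4 weeks, and 0 fell by limma, edgeR or DESeq2 (0 also at an unadjusted p below 0.05). Those 7 were C1qa, C1qb, C1qc, C2, Cfb, C3ar1 and C5ar1, whereas C3 and C4b did not pass the call at either time. Leaving out saline replicate 1 and bleo 2 replicate 2 removed the 2-week calls of C1qa and C1qc. Their log2 fold changes were then 0.56 and 0.40, under the 1.5-fold threshold. The other 2-week calls and all 7 at 4 weeks were kept. Of all genes tested, 9.3% were called higher and 7.43% lower at 2 weeks, and 10.5% higher and 7.37% lower at 4 weeks. The median log2 fold change over the 9 members was 0.86 at 2 weeks and 0.88 at 4 weeks, against 0.00 over all genes tested at both times. At recv 6, C2, C4b and Cfb were higher than in saline (3 of 9; background 3.33%) and C3 was lower (1 of 9; background 1.71%). At recv 10, C2 was higher (1 of 9; background 2.05%) and C3 was lower (1 of 9; background 0.998%). The 4 comparisons share the same saline mice and are therefore not independent of each other.

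**Figure D1:**
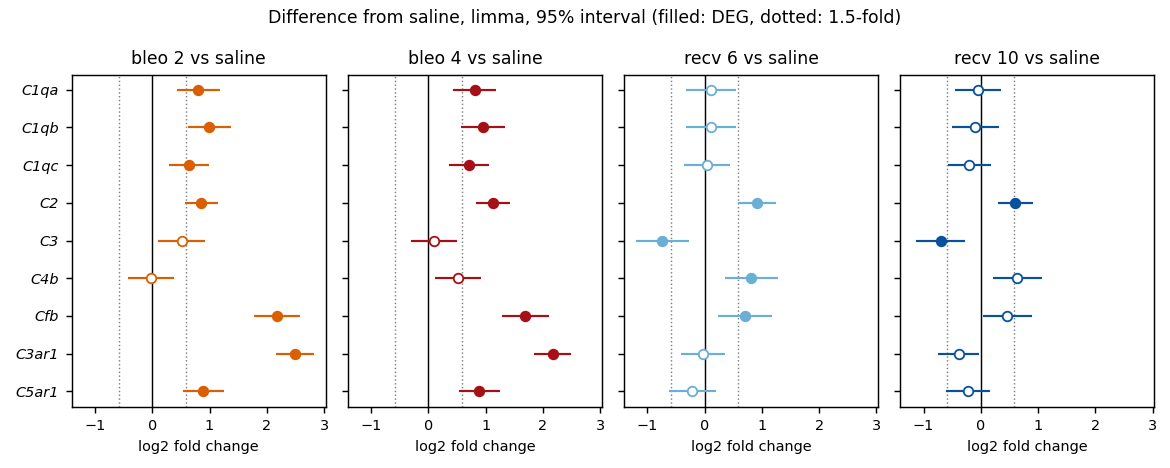
Log2 fold change against saline for the 9 genes in the 4 treated or recovered groups (x axis, log2 scale), from limma with 95% intervals; filled points are DEGs and dotted lines mark 1.5-fold. C3ar1 and Cfb lie farthest to the right under bleomycin, at 2.50 and 2.18 at 2 weeks, and C3 lies left of 0 in both recovery groups, at -0.74 and -0.70.

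The 3 chains of C1q, the molecule that starts the classical pathway, rose together under bleomycin and were back among the saline values after recovery. C1qb was at 1365 to 2349.9 (median 1646) normalized counts in saline, 1835 to 12249 (median 3003) in bleo 2, 2477 to 5610.4 (median 3281) in bleo 4, 1521 to 2286 (median 1806) in recv 6 and 1212 to 1943 (median 1636) in recv 10. Every bleo 4 mouse was above every saline mouse (as for 4.31% of all genes), while bleo 2 and both recovery groups overlapped with saline. The rise was 1.99-fold (95% interval 1.53 to 2.6) at 2 weeks (log2 fold change 1.00 ± 0.19 (SE), adjusted p = 4.08e-05, limma) and 1.94-fold (95% interval 1.49 to 2.53) at 4 weeks (log2 fold change 0.96 ± 0.19 (SE), adjusted p = 7.15e-05). After recovery the C1qb level was 1.08-fold (95% interval 0.795 to 1.46) of saline at recv 6 and 0.938-fold (95% interval 0.709 to 1.24) of saline at recv 10, with adjusted p of 0.812 and 0.878 by limma, so these intervals leave room for a change of either sign.

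C1qa, the A chain, was at 1135 to 2267 (median 1579) normalized counts in saline, 1519 to 9086 (median 2611) in bleo 2, 1975 to 5029 (median 2810.0) in bleo 4, 1454 to 2182 (median 1723) in recv 6 and 1175 to 1802 (median 1642) in recv 10. The bleomycin groups were higher but overlapped with saline, with 8 of 10 mice above every saline mouse at 2 weeks and 8 of 10 at 4 weeks. The change was 1.75-fold (95% interval 1.35 to 2.27) at 2 weeks (log2 fold change 0.81 ± 0.19 (SE), adjusted p = 0.000586, limma) and 1.75-fold (95% interval 1.35 to 2.28) at 4 weeks (log2 fold change 0.81 ± 0.19 (SE), adjusted p = 0.000522). Without saline replicate 1 and bleo 2 replicate 2 the 2-week value was 0.56 on the log2 scale, under the 1.5-fold threshold, with an adjusted p of 0.00262 by limma.

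C1qc, the C chain, rose least of the 3. It was at 1146 to 2359 (median 1622) normalized counts in saline, 1557 to 7864 (median 2338) in bleo 2, 2081 to 4501 (median 2587) in bleo 4, 1446 to 2094 (median 1677) in recv 6 and 1145 to 1778 (median 1459) in recv 10, and the groups overlapped with saline throughout. The change was 1.56-fold (95% interval 1.23 to 1.99) at 2 weeks (log2 fold change 0.64 ± 0.17 (SE), adjusted p = 0.00284, limma) and 1.63-fold (95% interval 1.28 to 2.08) at 4 weeks (log2 fold change 0.71 ± 0.17 (SE), adjusted p = 0.00105). The 2-week call rested on single mice: without saline replicate 1 the log2 fold change was 0.58, without bleo 2 replicate 2 it was 0.47 and without both it was 0.40, each under the 1.5-fold threshold. Bleo 2 replicate 2 had the highest value of all 44 mice for each of the 3 chains, 9086 for C1qa, 12249 for C1qb and 7864 for C1qc.

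**Figure D2:**
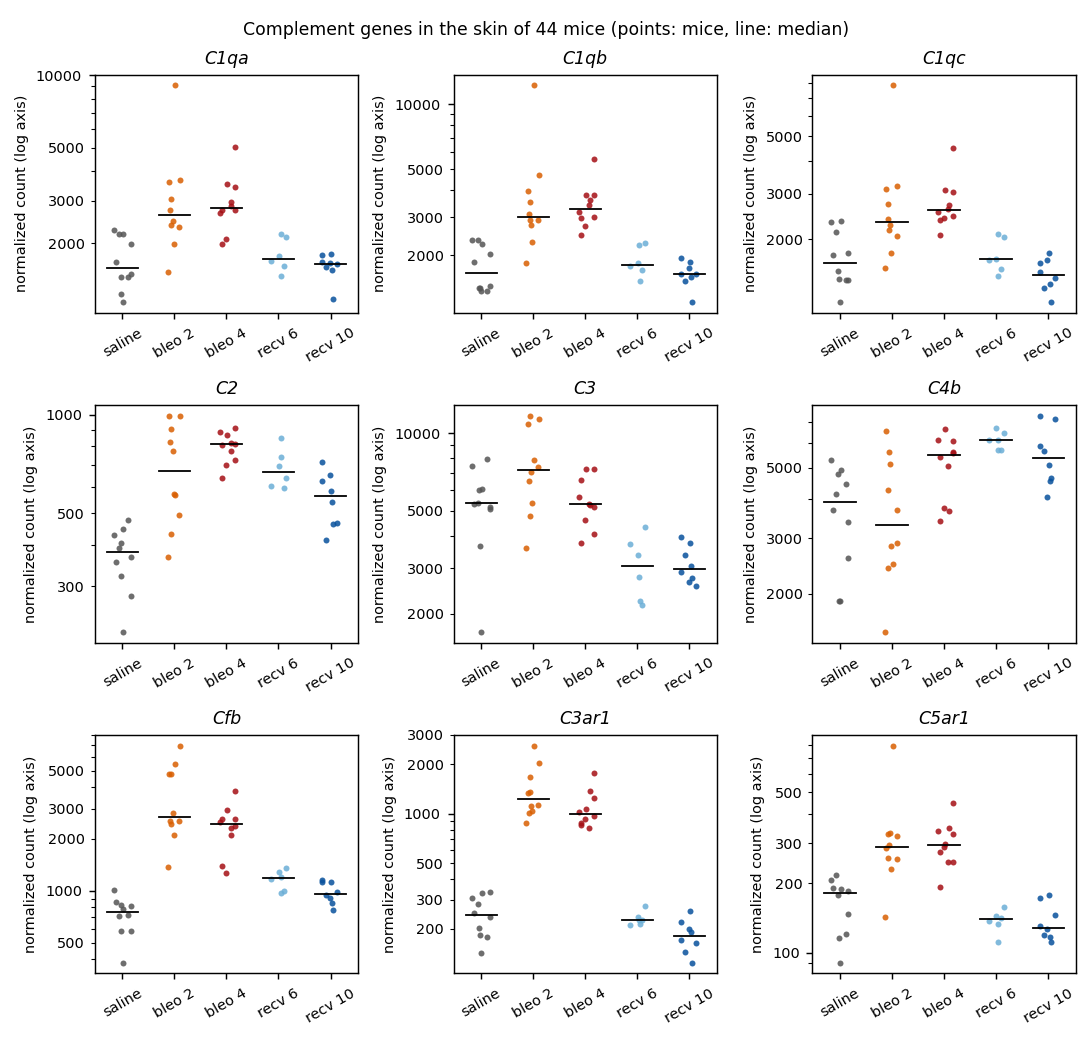
Normalized count of each of the 9 genes (y axis, log scale) in each mouse (points) of the 5 groups, with the group median as a line. C3ar1 and Cfb separate both bleomycin groups from saline without overlap. C1qb does so in bleo 4 only, C2 in bleo 4 and recv 6, and C4b in recv 6 only. C1qa, C1qc and C5ar1 rise with overlap, C3 is lowest in the recovery groups (medians 3073 and 2977) and C4b is highest in recv 6 (median 6138).

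Macrophage markers moved with the C1q genes. For the marker counts in this paragraph, 9.3% of all genes were called higher and 7.43% lower at 2 weeks, and 10.5% and 7.37% at 4 weeks. The shares were 3.33% and 1.71% at recv 6, and 2.05% and 0.998% at recv 10. Of 14 listed macrophage genes, 11 were DEGs above saline at 2 weeks and 11 at 4 weeks, and Cd163, a scavenger receptor of resident macrophages, was the 1 that fell at both times (median 961 normalized counts in saline, 470.3 in bleo 2 and 285 in bleo 4). The summed level of the 14 was 10946 to 27094 (median 17834) in saline, 27992 to 71857 (median 36713) in bleo 2, 27709 to 48957 (median 30542) in bleo 4, 15368 to 22562 (median 17383) in recv 6 and 12485 to 18577 (median 16371) in recv 10. Both bleomycin groups lay above every saline mouse in this sum, and after recovery 0 macrophage genes were above saline (0 also by edgeR, DESeq2 and at an unadjusted p below 0.05), while Cd163 was the 1 DEG below saline at both times (log2 fold changes -1.76 and -1.49). Other cell types moved in the same mice. Of 7 hair follicle genes tested, all 7 fell at 2 and at 4 weeks, their summed level being 2057 to 220060.0 (median 40612) in saline and 35.5 to 1927 (median 47.2) in bleo 2. Further, 6 of 7 mast cell genes rose at both times, and 5 of 10 fibroblast genes fell at 2 weeks and 2 at 4 weeks. Of 7 skeletal muscle genes 1, Ttn, rose at each time, against 9.3% and 10.5% of all genes called higher. The median summed muscle level was 202031 in saline, 176125 in bleo 2 and 164838 in bleo 4. The part of these markers in the rise of the complement genes was not tested, and in whole skin fewer or more cells of a type and less or more RNA per cell cannot be told apart.

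**Figure D3:**
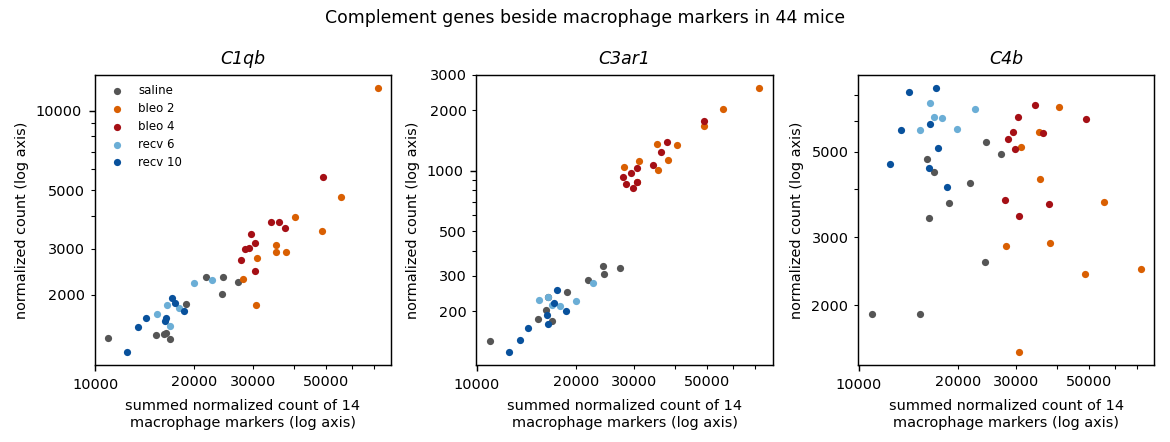
Normalized count of C1qb, C3ar1 and C4b (y axes, log scale) against the summed normalized count of 14 macrophage markers (x axis, log scale) in the 44 mice, coloured by group. Mice with more macrophage marker RNA lie higher for C1qb and C3ar1, with the C3ar1 points of the bleomycin groups apart from all others, and the C4b points show the recovery groups high at low marker sums.

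C3ar1, the receptor for the inflammatory fragment C3a, changed more than any other member. It was at 142 to 335 (median 243) normalized counts in saline, 877 to 2580.3 (median 1230.0) in bleo 2, 818 to 1762 (median 999.6) in bleo 4, 212 to 276 (median 226) in recv 6 and 125 to 255 (median 182) in recv 10. Both bleomycin groups were entirely above saline, and both recovery groups fell within or below the saline range. The rise was 5.65-fold (95% interval 4.49 to 7.1) at 2 weeks (log2 fold change 2.50 ± 0.16 (SE), adjusted p = 1.65e-16, limma) and 4.49-fold (95% interval 3.57 to 5.65) at 4 weeks (log2 fold change 2.17 ± 0.16 (SE), adjusted p = 1.88e-14). Groups apart from saline on the high side were seen for 3.44% of all genes at 2 weeks and 4.31% at 4 weeks, and among the members for 2 genes (C3ar1 and Cfb) at 2 weeks and for 4 (C1qb, C2, Cfb and C3ar1) at 4 weeks. At recv 6 the level was 0.98-fold (95% interval 0.752 to 1.28) of saline and at recv 10 0.764-fold (95% interval 0.599 to 0.975), with adjusted p of 0.947 and 0.198 by limma. Without saline replicate 1 and bleo 2 replicate 2 the recv 10 difference passed the p threshold, at an adjusted p of 0.0493 by limma. Its log2 fold change of -0.47 was still under the 1.5-fold threshold.

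C5ar1, the receptor for C5a that draws neutrophils and other myeloid cells, rose less. It was at 90.6 to 217 (median 182) normalized counts in saline, 143 to 795 (median 289.6) in bleo 2, 193 to 449 (median 293) in bleo 4, 112 to 158 (median 139) in recv 6 and 111 to 178 (median 129) in recv 10. The groups overlapped, with 9 of 10 mice above every saline mouse at 2 weeks and 9 of 10 at 4 weeks. The change was 1.86-fold (95% interval 1.45 to 2.38) at 2 weeks (log2 fold change 0.89 ± 0.18 (SE), adjusted p = 7.6e-05, limma) and 1.85-fold (95% interval 1.44 to 2.36) at 4 weeks (log2 fold change 0.88 ± 0.18 (SE), adjusted p = 8.53e-05), and it was not a DEG in either recovery group. Neutrophil markers also rose with it: 6 of the 7 tested were DEGs above saline at 2 weeks and 4 of 7 at 4 weeks, and the summed level went from 95.3 to 218 (median 162) in saline to 403 to 4877 (median 705) in bleo 2 and 354 to 1449 (median 557) in bleo 4. Of all genes tested, 9.3% and 10.5% were called higher at 2 and 4 weeks. The part of the neutrophil markers in the C5ar1 result was not tested.

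Cfb, the serine protease that drives the alternative pathway, showed the second largest rise. It was at 383 to 1011 (median 757) normalized counts in saline, 1369 to 6961 (median 2684) in bleo 2, 1276 to 3795 (median 2444) in bleo 4, 976 to 1354 (median 1183) in recv 6 and 769 to 1159 (median 963) in recv 10. All bleomycin mice were above all saline mice, and the recovery groups overlapped the upper part of the saline range. The rise was 4.52-fold (95% interval 3.41 to 5.99) at 2 weeks (log2 fold change 2.18 ± 0.20 (SE), adjusted p = 6.06e-12, limma) and 3.23-fold (95% interval 2.44 to 4.29) at 4 weeks (log2 fold change 1.69 ± 0.20 (SE), adjusted p = 4.72e-09). At recv 6 it was still a DEG at 1.63-fold (95% interval 1.18 to 2.26) (log2 fold change 0.71 ± 0.23 (SE), adjusted p = 0.047, limma), and that call was lost without saline replicate 1, at a log2 fold change of 0.61 and an adjusted p of 0.0934, and with edgeR on the recovered reads, at an adjusted p of 0.0504. At recv 10 the level was 1.38-fold (95% interval 1.02 to 1.86) of saline with an adjusted p of 0.217 by limma.

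C2, the neighbour and close relative of Cfb that plays the same part in the classical pathway, rose less under bleomycin and was higher than saline in both recovery groups. It was at 217 to 477 (median 380.2) normalized counts in saline, 367 to 993 (median 674) in bleo 2, 639 to 913 (median 812) in bleo 4, 596 to 848 (median 669) in recv 6 and 415 to 716 (median 563) in recv 10. Every bleo 4 and every recv 6 mouse was above every saline mouse, against 1.41% of all genes with recv 6 apart from saline on the high side, while bleo 2 and recv 10 overlapped with saline. The change was 1.81-fold (95% interval 1.48 to 2.22) at 2 weeks (log2 fold change 0.86 ± 0.14 (SE), adjusted p = 6.29e-06, limma) and 2.18-fold (95% interval 1.78 to 2.67) at 4 weeks (log2 fold change 1.13 ± 0.14 (SE), adjusted p = 2.77e-08). In recovery it was 1.89-fold (95% interval 1.49 to 2.38) at recv 6 (log2 fold change 0.92 ± 0.17 (SE), adjusted p = 0.000296, limma) and 1.52-fold (95% interval 1.23 to 1.88) at recv 10 (log2 fold change 0.60 ± 0.15 (SE), adjusted p = 0.0126). The recv 10 call was lost without saline replicate 1, at a log2 fold change of 0.52, under the 1.5-fold threshold, and an adjusted p of 0.0244 by limma. Endothelial markers were higher in several of the same groups: 2 of 6 were DEGs above saline at 2 weeks, 2 at 4 weeks, 4 at recv 6 and 0 at recv 10 (by limma, edgeR and DESeq2; 3 had an unadjusted p below 0.05 there), and their summed level was 1260.3 to 2594 (median 2185) in saline, 1499.6 to 3904 (median 2795) in bleo 2, 2418 to 3269.9 (median 2777) in bleo 4, 2766 to 3556 (median 3174) in recv 6 and 2261 to 3302 (median 2777) in recv 10. Of all genes tested, 9.3%, 10.5%, 3.33% and 2.05% were called higher than saline in the same order of groups. The part of the endothelial markers in the C2 result was not tested.

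C3, the protein on which all pathways converge, was lower after recovery than in saline. It was at 1695 to 7915 (median 5353) normalized counts in saline, 3592 to 11687 (median 7225) in bleo 2, 3746 to 7259.8 (median 5303) in bleo 4, 2169 to 4331 (median 3073) in recv 6 and 2568 to 3978 (median 2977) in recv 10. Saline replicate 1, at 1695, was far below the other saline mice, and recv 6 and recv 10 overlapped the lower part of the saline range. Against saline C3 was at 1.43-fold (95% interval 1.08 to 1.89) at 2 weeks (log2 fold change 0.51 ± 0.20 (SE), adjusted p = 0.0416, limma), under the 1.5-fold threshold, and at 1.07-fold (95% interval 0.809 to 1.42) at 4 weeks with an adjusted p of 0.736. Without saline replicate 1 and bleo 2 replicate 2 the 2-week difference no longer passed the p threshold either, at a log2 fold change of 0.32 and an adjusted p of 0.157 by limma. At recv 6 it was 0.599-fold (95% interval 0.433 to 0.828) of saline (log2 fold change -0.74 ± 0.23 (SE), adjusted p = 0.0361, limma) and at recv 10 0.616-fold (95% interval 0.458 to 0.829) (log2 fold change -0.70 ± 0.21 (SE), adjusted p = 0.0407). Both recovery calls were lost when only the groups compared entered the fit, at adjusted p of 0.0915 and 0.0795, and when low genes were kept, at 0.0587 and 0.0664, by limma. Without saline replicate 1 and bleo 2 replicate 2 both calls were kept, with log2 fold changes of -0.91 and -0.87. The adjusted p were then 0.00242 and 0.00185 by limma.

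C4b, the gene for C4, went the other way in recovery. It was at 1894 to 5301 (median 3914) normalized counts in saline, 1509 to 6539 (median 3295) in bleo 2, 3398 to 6622 (median 5497) in bleo 4, 5683 to 6700.1 (median 6138) in recv 6 and 4045 to 7327 (median 5389) in recv 10. Every recv 6 mouse was above every saline mouse (as for 1.41% of all genes), bleo 2 spanned more than the saline range, and recv 10 overlapped the top of it. C4b was at 0.981-fold (95% interval 0.743 to 1.29) of saline at 2 weeks with an adjusted p of 0.93 by limma, at 1.44-fold (95% interval 1.09 to 1.89) at 4 weeks (log2 fold change 0.52 ± 0.20 (SE), adjusted p = 0.0355), under the 1.5-fold threshold, at 1.76-fold (95% interval 1.27 to 2.42) at recv 6 (log2 fold change 0.81 ± 0.23 (SE), adjusted p = 0.0192) and at 1.56-fold (95% interval 1.16 to 2.09) at recv 10 (log2 fold change 0.64 ± 0.21 (SE), adjusted p = 0.0614). Without saline replicate 1 and bleo 2 replicate 2 the 4-week difference no longer passed the p threshold, at a log2 fold change of 0.42 and an adjusted p of 0.0811 by limma. C4a, the close copy of C4b, was at 16 to 30.8 (median 22.8) normalized counts in saline and 21.6 to 32.8 (median 27.2) in recv 6, and how the authors' counting placed reads that fit both copies is not given in the sources used here.

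Ratios between pairs of members in the same mouse, chosen after the values were seen and given without a test, showed which genes did not keep step. C3ar1 over C5ar1 was 1.14 to 1.8 (median 1.52) in saline, 3.25 to 6.3 (median 4.57) in bleo 2, 3.03 to 4.42 (median 3.68) in bleo 4, 1.55 to 1.92 (median 1.66) in recv 6 and 1.13 to 1.64 (median 1.29) in recv 10. The bleomycin mice lay apart from all others in this ratio. Cfb over C2 was 1.52 to 2.4 (median 1.93) in saline, 3.08 to 9.56 (median 4.98) in bleo 2, 1.82 to 4.66 (median 2.91) in bleo 4, 1.31 to 2.11 (median 1.76) in recv 6 and 1.39 to 2.27 (median 1.73) in recv 10, so the neighbours on chromosome 17 differed most at 2 weeks. C3 over C4b was 0.893 to 1.96 (median 1.43) in saline, 1.37 to 3.17 (median 2.03) in bleo 2, 0.731 to 1.44 (median 1.1) in bleo 4, 0.366 to 0.67 (median 0.494) in recv 6 and 0.361 to 0.736 (median 0.625) in recv 10, and the recovery mice lay below every saline mouse. C1qb over C1qc was 0.941 to 1.19 (median 1.02) in saline, 1.18 to 1.56 (median 1.29) in bleo 2, 1.13 to 1.33 (median 1.24) in bleo 4, 1.05 to 1.12 (median 1.08) in recv 6 and 1.05 to 1.2 (median 1.12) in recv 10, a small shift within a cluster whose chains join in 1 protein. Against the macrophage gene Adgre1, C3ar1 was at 0.216 to 0.404 (median 0.284) in saline, 0.53 to 0.997 (median 0.659) in bleo 2 and 0.476 to 0.877 (median 0.606) in bleo 4, without overlap between the bleomycin groups and saline, whereas C1qb over Adgre1 was 1.64 to 3.56 (median 2.05), 1.39 to 4.73 (median 1.58) and 1.51 to 2.56 (median 1.84) in the same groups, which overlapped. Against Csf1r, another macrophage gene, C1qb was at 0.565 to 1.14 (median 0.749) in saline, 0.916 to 2.28 (median 1.09) in bleo 2 and 1.08 to 1.59 (median 1.32) in bleo 4, with higher medians under bleomycin and overlap with saline. The medians of C1qb thus moved in opposite directions against these 2 macrophage genes. The listed macrophage genes did not rise alike. From saline to bleo 2 the median normalized count went from 849 to 1919 for Adgre1 and from 2367 to 2953 for Csf1r. It went from 1757 to 6387 for Ctss and from 75.7 to 337 for Msr1. A ratio of C3ar1 or C1qb to 1 such gene therefore does not stand for macrophage RNA as a whole.

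**Figure D4:**
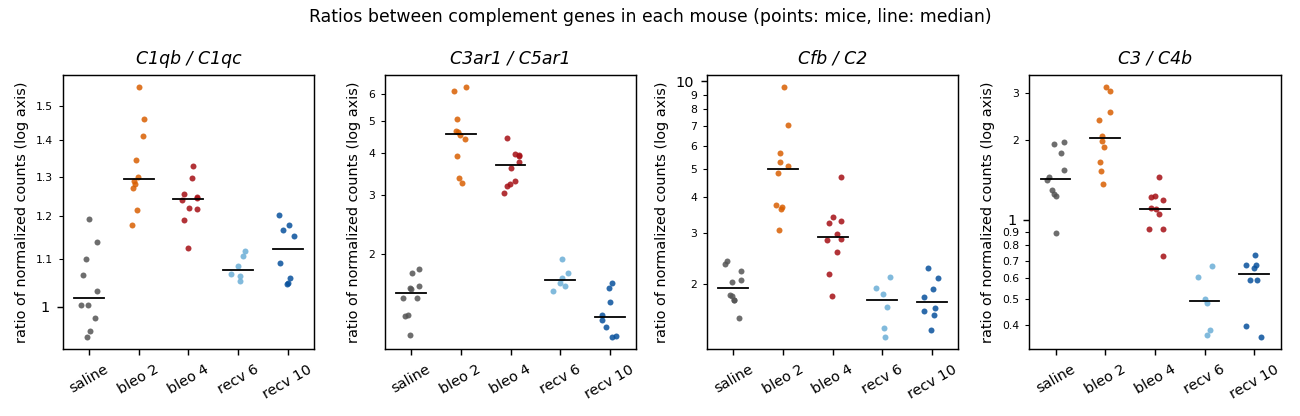
Ratio of normalized counts in each mouse (y axes, log scale) for C1qb over C1qc, C3ar1 over C5ar1, Cfb over C2 and C3 over C4b in the 5 groups, with medians as lines. The C3ar1 to C5ar1 ratio is high in both bleomycin groups (medians 4.57 and 3.68), and the C3 to C4b ratio is low in both recovery groups (medians 0.494 and 0.625).

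When recovered mice were set directly against bleo 4 mice, the same 7 genes fell at recv 6 and at recv 10, namely C1qa, C1qb, C1qc, C3, Cfb, C3ar1 and C5ar1, both comparisons sharing the bleo 4 mice. Of all genes tested, 7.14% were called lower at recv 6 and 9.1% at recv 10. C3ar1 fell most, by 2.20 on the log2 scale at recv 6 (adjusted p = 4.29e-12, limma) and by 2.55 at recv 10 (adjusted p = 1.59e-15). The others had log2 fold changes between -1.10 (C5ar1) and -0.66 (C1qc) at recv 6 and between -1.23 (Cfb) and -0.80 (C3) at recv 10. Recv 6 lay wholly below bleo 4 for C1qb, C3ar1 and C5ar1 (5.77% of all genes), and recv 10 did so for these and C1qa, C1qc and Cfb (5.25% of all genes). C2 and C4b did not pass the call, with log2 fold changes of -0.21 and 0.29 at recv 6 and -0.52 and 0.12 at recv 10, where C2 was under the 1.5-fold threshold at an adjusted p of 0.00696 by limma.

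No member was a DEG between 4 and 2 weeks of bleomycin or between the recovery times, where 2.35% and 0.088% of all genes were called in either direction. Between bleo 4 and bleo 2 the largest differences were a log2 fold change of 0.55 ± 0.20 (SE) for C4b, with an adjusted p of 0.0915 by limma, and -0.48 ± 0.20 (SE) for Cfb, with an adjusted p of 0.153. By edgeR and DESeq2 the count was also 0 in both comparisons, and at an unadjusted p below 0.05 limma gave 1 member higher and 3 lower between bleo 4 and bleo 2, and 0 between the recovery times. In the order of group means, the C1q genes, Cfb, C3ar1 and C5ar1 stood highest in both bleomycin groups, between which the adjusted test was not passed, and the next step down, to recv 6 or to saline, passed the test for each of them. The 95% intervals of the log2 difference (bleo 4 minus bleo 2) left out 0 for C4b (0.15 to 0.95) and Cfb (-0.89 to -0.08). They also did so for C3 (-0.82 to -0.01) and for C3ar1, with an unadjusted p of 0.0494 for C3ar1 (limma). C2 stood in the order bleo 4, recv 6, bleo 2, recv 10, saline, and no step between neighbouring groups passed the test until the last, from recv 10 to saline. C3 stood in the order bleo 2, bleo 4, saline, recv 10, recv 6, where the step from saline to recv 10 passed the test, and C4b in the order recv 6, recv 10, bleo 4, saline, bleo 2, where the step from bleo 4 to saline had an adjusted p of 0.0355 by limma, or 0.0811 without saline replicate 1 and bleo 2 replicate 2.

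Per kilobase of exon, C1qa and C1qb were the most abundant members in saline, at 1637 and 1637 mean normalized counts per kilobase, and C5ar1 and C3ar1 the least, at 64 and 56.8. C3 was at 1046 and C4b at 651 on the same scale in saline, and in recv 6 C4b, at 1078, was above C3, at 604. C3ar1 rose to 328 in bleo 2, above C5ar1 at 126. Hepatocyte markers were low: Fga was listed at 0 in every saline mouse, the medians of Apoa1, Apoc3, Ttr and Serpina1a in saline were 1.04, 2.35, 0 and 1.07 normalized counts, and Alb had a median of 32.6. Ttr was the 1 hepatocyte gene above saline as a DEG at 2 and 4 weeks, at medians of 3.42 and 8.32, against C3 medians of 7225 and 5303.

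Of 47 other complement genes listed, 46 were in the table and 34 passed the filter. At 2 weeks 12 of the 34 were DEGs above saline and 3 below, at 4 weeks 14 and 2, 7 and 2 at recv 6, and 2 and 0 at recv 10 (0 lower also by edgeR and DESeq2, 2 at an unadjusted p below 0.05). Of all genes tested, 9.3% were called higher and 7.43% lower at 2 weeks, and 10.5% and 7.37% at 4 weeks. The shares were 3.33% and 1.71% at recv 6, and 2.05% and 0.998% at recv 10. The counts below saline at 2 and 4 weeks were near these shares, which also apply to the lists that follow. The median log2 fold changes of the 34 were 0.34, 0.51, 0.20 and 0.04 in that order, against 0.00 over all genes in each comparison. These genes were listed with results of these data already known.

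**Figure D5:**
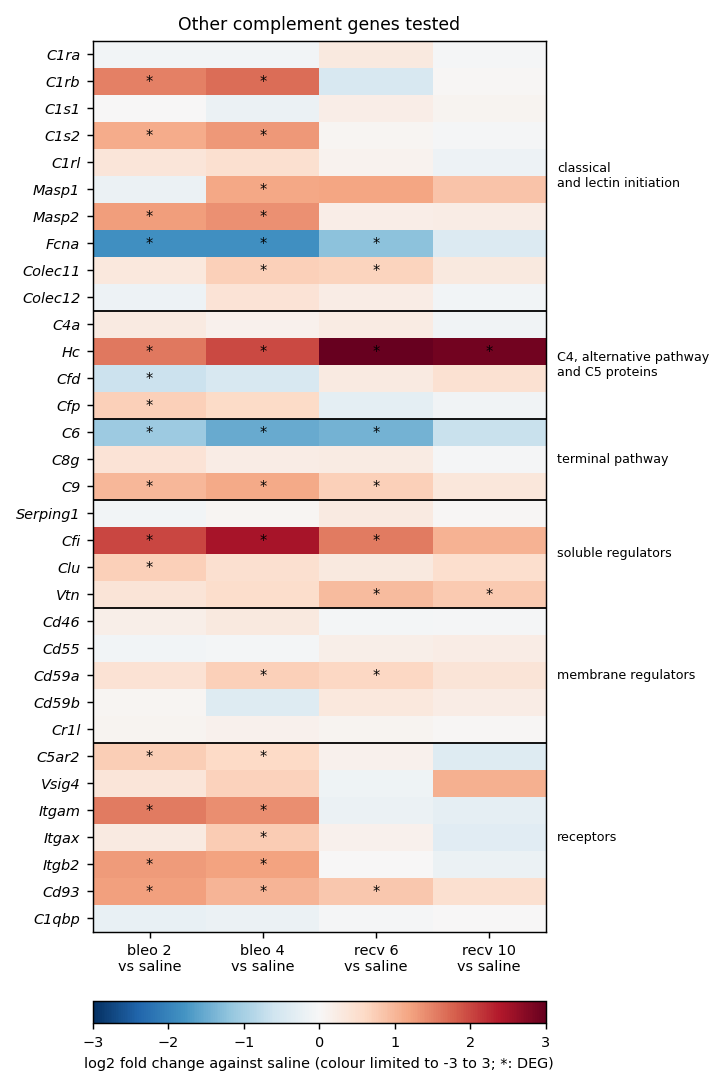
Log2 fold change against saline (colour, limited to -3 to 3) of other complement genes tested, grouped by role, with a star for DEGs. Itgam, Itgb2 and C5ar2 are starred under bleomycin and not in recovery, Hc is red in all 4 columns, and Fcna and C6 are blue in the first 3.

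Among the genes that start the classical and lectin pathways, 3 of 10 tested rose and 1 fell at 2 weeks, and 5 rose and 1 fell at 4 weeks. The main C1 proteases C1ra and C1s1 were not DEGs (log2 fold changes at 4 weeks -0.09 and -0.17), while their rarely read copies C1rb and C1s2 rose, C1s2 from 1.14 to 10.3 (median 6.57) normalized counts in saline to 10.2 to 21.5 (median 13.8) in bleo 4 (log2 fold change 1.30 ± 0.29 (SE), adjusted p = 0.000321, limma). Reads that fit both copies of such pairs may have been placed on either. Masp1 and Masp2, the proteases of the lectin pathway, rose at 4 weeks (1.16 and 1.38 on the log2 scale). Masp1, at medians of 90.7 normalized counts in saline and 147 in bleo 4, was also the 1 gene of these 34 that was a DEG between bleo 4 and bleo 2 (1.32, adjusted p = 0.0222, limma). Masp2, also called higher at 2 weeks, had few reads, with medians of 2.38 in saline, 6.35 in bleo 2 and 6.08 in bleo 4. Colec11, a soluble collectin, rose at 4 weeks (0.72) and was higher at recv 6 (0.67). Fcna, a ficolin that binds sugars on microbes, fell from 79.9 to 350.1 (median 158) normalized counts in saline to 24.1 to 107 (median 39) in bleo 2 and 26.7 to 63 (median 46.2) in bleo 4 (log2 fold change -1.83 ± 0.26 (SE), adjusted p = 1.9e-07, limma), was still lower at recv 6 (-1.22), and was at 65.7 to 194 (median 128) in recv 10.

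Hc, the gene for C5, whose fragment C5a is the ligand of C5ar1, was higher than saline in all 4 groups. It was at 0 to 3.44 (median 0.57) normalized counts in saline, 1.92 to 8.22 (median 3.62) in bleo 2, 2.93 to 10.1 (median 5.75) in bleo 4, 17.5 to 40.1 (median 30.5) in recv 6 and 3.68 to 17.9 (median 12.7) in recv 10. These are few reads, but every recv 6 mouse was above every saline mouse, as was seen for 1.41% of all genes. Recv 10 also lay above saline, and recv 6 above bleo 4, without overlap, for which no share of all genes is given here. The log2 fold change, understated by the pseudocount at such levels, was 1.58 at 2 weeks (adjusted p = 1.92e-05, limma), 1.99 at 4 weeks (3.13e-07), 4.12 at recv 6 (2.52e-12) and 2.89 at recv 10 (9.58e-09). Cfp, properdin, which steadies the alternative C3-splitting enzyme, rose at 2 weeks (0.72), and Cfd, factor D, a protease of fat cells that activates factor B, fell at 2 weeks by limma (-0.64), a call that edgeR did not make. Fat cell markers were lower in the same mice, 2 of 7 DEGs at 2 weeks (1 by edgeR) and 3 of 7 at 4 weeks. Of all genes tested, 7.43% and 7.37% were called lower at these times. The part of the fat cell markers in the Cfd result was not tested.

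Of 3 terminal pathway genes tested, C9, the pore-forming protein, rose under bleomycin (0.99 at 2 weeks and 1.13 at 4 weeks on the log2 scale) and was higher at recv 6 (0.73). C6, which joins the complex earlier, fell by 1.09, 1.51 and 1.42 on the log2 scale at 2 weeks, 4 weeks and recv 6, from 51.3 to 117 (median 67.2) normalized counts in saline to 10.8 to 53.5 (median 25.2) in bleo 4. Among soluble regulators, Cfi, the protease that inactivates C3b and C4b, went from 0 to 2.37 (median 0) normalized counts in saline to 0 to 15.9 (median 4.96) in bleo 2, 1.96 to 11 (median 6.35) in bleo 4 and 0 to 8.82 (median 3.54) in recv 6, and was a DEG in these 3 groups. Clu, clusterin, rose at 2 weeks (0.71), and Vtn, vitronectin, was higher in recovery (0.95 at recv 6 and 0.78 at recv 10). Serping1, the C1 inhibitor, was not a DEG against saline at any time. Of 5 membrane regulators tested, Cd59a, which blocks the pore, was the 1 DEG against saline, at 4 weeks (0.71) and recv 6 (0.62), and Cd59b was higher in both recovery groups than in bleo 4 (0.70 and 0.62).

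Receptors other than C3ar1 and C5ar1 rose in 4 of 7 tested genes at 2 weeks and in 5 of 7 at 4 weeks. Itgam and Itgb2, the chains of complement receptor 3, rose by 1.57 and 1.27 on the log2 scale at 2 weeks and were not DEGs after recovery. C5ar2, the second C5a receptor, rose by 0.74 and 0.59 at 2 and 4 weeks, and Itgax, a chain of complement receptor 4, by 0.76 at 4 weeks. Cd93, a surface protein first described as a C1q receptor and made by endothelial and myeloid cells, was at 229 to 464 (median 367) normalized counts in saline, 509 to 1101 (median 847) in bleo 2, 589 to 854 (median 718) in bleo 4 and 506 to 733 (median 621) in recv 6, each apart from saline, and it was a DEG in these 3 groups. Groups apart from saline on the high side were seen for 3.44%, 4.31% and 1.41% of all genes in the same order. Against bleo 4, 3 receptors fell at recv 6 and 4 at recv 10, where 7.14% and 9.1% of all genes were called lower.

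Cytokine and signalling genes that are known to act on complement genes were listed too. Of 11 tested, 7 rose at 2 weeks and 7 at 4 weeks, and after recovery 0 were DEGs against saline by limma, edgeR or DESeq2, with 3 higher at recv 6 and 2 at recv 10 at an unadjusted p below 0.05. Among them, Il1b, Il6, Tnf, Osm and Socs3 rose at both times, Irf1 at 2 weeks and Cebpd at 4 weeks. Il6, a cytokine of the acute phase response, was at 0 to 5.92 (median 2.28) normalized counts in saline, 5.61 to 25.8 (median 14.2) in bleo 2 and 3.2 to 25.6 (median 13.7) in bleo 4 (log2 fold change 2.27 ± 0.37 (SE), adjusted p = 3.68e-06 at 2 weeks, limma), with overlap between the groups. Nfkbia, Stat3 and Cebpb were tested and not called, with log2 fold changes at 2 weeks of 0.03, 0.29 and -0.06. Whether these genes act on the complement genes here was not tested.

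The genes whose levels ran most nearly in parallel with each member over the 44 mice differed between members. By Pearson correlation of log2(normalized count + 1), a description without a test since the mice fall into groups, C3ar1 was closest to Ms4a6b, Slfn1 and Ms4a6c (r = 0.99 for the first, 0.87 with group means taken off). C1qb and C1qc were closest to Fcgr3 (r = 0.96 and 0.95), with Il10rb and P2rx4 next, and C1qa to Il10rb, Unc93b1 and P2rx4 (r = 0.95 for the first). C5ar1 was closest to Fcgr3, Snx2 and Hk3 (r = 0.95 for the first). Cfb ran with Sp100, Uba7 and Oas1a (r = 0.96 for the first), and C2 with Pecam1, Mmrn2 and Ephx1 (r = 0.95 for the first, 0.92 with group means taken off), of which Pecam1 was on the endothelial list. C4b was closest to Podxl, Slc38a10 and Gprc5b (r = 0.88 for the first), and C3 had the weakest neighbours, Arhgap45, Myo1g and Dock2 (r = 0.84 for the first). All these genes were read from the same libraries, so depth and the make-up of each skin sample are shared between them.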

How the data were processed

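RNA from back skin of 44 mice was made into TruSeq stranded mRNA libraries and sequenced as 50 bp paired-end reads. The authors aligned reads with STAR 2.4.0 to mm10 and deposited gene counts divided by DESeq2 1.12.3 size factors, which is the normalized signal used here; the counting tool, its strand setting and its annotation are not given in the sources used here. Whole reads were recovered from the steps in these values (100.0% whole within 0.01 read). Groups came from the sample labels. Since the deposited values are not raw counts, the test was limma 3.58.1 with a mean-variance trend on log2(normalized count + 1), over all 5 groups in 1 fit, for 17037 genes with a mean normalized count above 3. DEG: fold change above 1.5 and Benjamini-Hochberg adjusted p below 0.05. The added 1 shrinks fold changes of genes with few reads. Symbols were matched for 42929 of 43411 gene identifiers (98.9%), and 14600 genes had no read. Positions are from GENCODE M21 and promoters from RefSeq, both GRCm38.

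Alternatives were a pseudocount of 0.1, no filter, a minimum of 10 normalized counts in 6 mice or more, no fold change threshold, trimmed-mean and quantile rescaling, fits with a block for replicate number, fits of the compared groups alone, edgeR 4.0.16 and DESeq2 1.42.0 on recovered reads, and leaving out saline replicate 1, bleo 2 replicate 2 or both. Code was tested on simulated data. The 9 genes, the lists and the tests were chosen with earlier results of these data known. Named genes were all members, other complement genes that were DEGs against saline in at least 1 comparison, C4a, the signalling genes tested, and the 3 nearest genes of each member; markers, ratios and genes quoted as not called were added after their values were seen. Some listed genes are counted but not reported by name here.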

Additional observations from a re-analysis of the deposited data

Results flagged for a closer look

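Of 45 sets of values tested, 1 for each member in each group, 8 had a mouse at the edge whose gap to its nearest neighbour was over the 95% critical value of Dixon's test for that group size. For a single set chance gives about 1 in 20. The 45 sets are not independent, since all members were read from the same mice, so the 8 cannot be judged against that share. In bleo 2 replicate 2 the highest values of the group stood apart for C1qa (9086 normalized counts), C1qb (12249), C1qc (7864) and C5ar1 (795). The same mouse had the highest macrophage marker sum of all groups, 71857 normalized counts, and the highest neutrophil marker sum, 4877. In bleo 4 replicate 4 the highest values stood apart for C1qb (5610.4) and C1qc (4501). The lowest value stood apart for C3 in saline replicate 1 (1695), a mouse that was also the lowest of its group for 7 of the 9 members and had the highest hair follicle marker sum and the lowest macrophage marker sum of the saline mice. The lowest value stood apart for C1qa in recv 10 replicate 5 (1175), the lowest of its group for 6 of the 9 members. These values stayed in all results above unless stated, and their origin was not tested.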

How the results depend on the processing

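Over the alternatives tried, 916 of 936 values for single members stayed on their side of the call, 16 lost the call and 4 gained it. Some small differences that were not called changed sign. For C3 at 4 weeks against saline the log2 fold change was 0.10 with all mice. It was -0.07 without saline replicate 1 and bleo 2 replicate 2. The counts of members called were within 1.5 times of those reported in all comparisons except the 2 of recovered mice with saline. At 2 weeks against saline, leaving out saline replicate 1 and bleo 2 replicate 2 still removed the calls of C1qa and C1qc. At recv 6, where 4 members were called, 2 were called with no filter on low values (C2 and C4b). At recv 10, where 2 were called, 1 was called with no filter (C2), 1 when only the groups compared entered the fit (C2), and 1 without saline replicate 1, whether or not bleo 2 replicate 2 was also left out (C3), so this count ranged from 1 to 2. With no fold change threshold, C3 at 2 weeks, C4b at 4 weeks and C2 between recv 10 and bleo 4 also passed.

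The replicate numbers do not pair the mice: over 78 pairs of mice with the same number the median correlation of deviations from the group means was -0.002, with 18 above 0.1, and 4 of 44 mice correlated best with a mouse of their own number. With the replicate number as a block, the count of members called was 7 at 2 weeks, 7 at 4 weeks, 3 at recv 6 and 2 at recv 10; C3 lost its recovery calls (log2 fold changes -0.64 and -0.64, adjusted p = 0.0797 and 0.0699, limma) and C4b gained one at recv 10 (0.76, adjusted p = 0.0142).

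The recovery groups held 6 and 8 mice, fewer than the others, and their intervals against saline are wider.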
